A study of Mus musculus with 8 samples.

Results

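Cytotoxic T lymphocytes and natural killer (NK) cells kill infected or altered cells, and 10 genes of their machinery were followed in the spleens of mice without the microRNA miR-155 and of wild-type mice: Cd8a, Gzma, Gzmb, Prf1, Nkg7, Ccl5, Klrk1, Klrd1, Il2rb and Xcl1. They were chosen by name as a functional set. The 10 genes, out of 24203 named genes on the array, were found by the gene name in the array tables and have 17 features, and a feature summarises 3 probes. The feature with the highest mean over all arrays stands for a gene below, and values are log2 intensities.

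Spleens of 4 mice lacking miR-155 and of 4 wild-type controls were profiled on 1-colour expression arrays, 1 spleen per array, with 2 animals labelled female and 2 labelled male in each genotype. The knockout animals are Mim1-5 and Mim1-6, labelled female, and Mim2-2 and Mim2-3, labelled male, so among them labelled sex and name prefix cannot be told apart. The wild-type animals are WT-1 and WT-3, labelled female, and WT-2 and WT-4, labelled male. No treatment is named for either genotype, and strain, age, the makeup of the knockout allele and any shared litters are not given in the sources used here.

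Killing by these cells uses granules that hold perforin, which opens membranes, and granzymes, proteases that then set off death in the target. NK cells and part of the CD8 T cells carry lectin-like receptors that read stress ligands or class I molecules, live on interleukin 15 through the receptor chain Il2rb, and release the chemokines Ccl5 and Xcl1. In spleen they lie in the red pulp and the T cell zone among a large excess of B cells and red cells.

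Of the mature strands of miR-155, the microRNA that the genotype label names, only 5p is shown. Its seed, bases 2 to 8, which pairs with target transcripts, is in capitals, and the locus is chr16:84714143-84714165, plus strand, in GRCm38.p6 (RefSeq).
mmu-miR-155-5p: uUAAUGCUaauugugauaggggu

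Promoter windows are shown for 4 members: Xcl1, Cd8a and Gzmb, whose knockout arrays all lay above all wild-type arrays, and Nkg7, whose window holds the most kinds of motif searched. Each runs from 250 bases before to 50 after the gene's start, 5′ to 3′ on the gene's strand, from RefSeq in GRCm38.p6. Capitals mark matches on either strand to TGTGGT, the core bound by RUNX factors such as Runx3 of CD8 T and NK cells. The Xcl1 window is chr1:164935473-164935772, minus strand, that of Cd8a is chr6:71373177-71373476, plus strand, that of Gzmb is chr14:56262285-56262584, minus strand, and that of Nkg7 is chr7:43436888-43437187, plus strand.
Xcl1: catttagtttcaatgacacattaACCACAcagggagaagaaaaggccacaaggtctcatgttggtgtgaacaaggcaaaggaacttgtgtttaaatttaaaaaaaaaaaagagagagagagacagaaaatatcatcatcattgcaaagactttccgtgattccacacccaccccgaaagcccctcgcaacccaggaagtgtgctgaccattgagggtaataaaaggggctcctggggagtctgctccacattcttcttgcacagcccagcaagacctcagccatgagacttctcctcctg
Cd8a: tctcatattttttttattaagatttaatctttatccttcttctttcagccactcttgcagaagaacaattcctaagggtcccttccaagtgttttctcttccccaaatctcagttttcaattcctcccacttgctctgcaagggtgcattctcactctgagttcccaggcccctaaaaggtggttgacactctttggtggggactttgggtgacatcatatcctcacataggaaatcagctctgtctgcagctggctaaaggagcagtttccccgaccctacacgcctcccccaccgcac
Gzmb: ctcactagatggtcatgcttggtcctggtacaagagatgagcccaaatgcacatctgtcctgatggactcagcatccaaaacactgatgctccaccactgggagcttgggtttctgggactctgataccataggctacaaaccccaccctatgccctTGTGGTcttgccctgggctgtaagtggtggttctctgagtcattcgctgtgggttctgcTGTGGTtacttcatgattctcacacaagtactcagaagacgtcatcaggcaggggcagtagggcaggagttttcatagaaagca
Nkg7: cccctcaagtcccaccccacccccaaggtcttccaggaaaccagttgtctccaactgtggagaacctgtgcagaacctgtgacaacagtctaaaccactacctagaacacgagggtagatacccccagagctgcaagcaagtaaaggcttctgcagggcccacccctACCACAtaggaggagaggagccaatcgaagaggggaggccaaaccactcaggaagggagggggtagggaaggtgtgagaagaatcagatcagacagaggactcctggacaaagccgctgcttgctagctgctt

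The table of promoters holds windows for 7 of the 10 members. The RUNX core lay in 6 of these 7, in the windows of Xcl1, Klrk1, Nkg7, Prf1, Gzma and Gzmb, and in 16.8% of all 32851 windows of the same length. Gzmb had 2 matches, which begin 93 and 34 bases before the start, and that of Xcl1 begins 227 bases before it. The Cd8a window, printed wholly in lower case, had no match. The ETS core AGGAAG was in 3 member windows (Xcl1, Nkg7 and Prf1) and 35.4% of all, and the T-box core GGTGTGA in 2 (Xcl1 and Nkg7) and 3.98% of all. The STAT motif TTCNNNGAA was in 2 (Nkg7 and Gzmb) and 8.3% of all, and the AP-1 motif TGAGTCA in 2 (Klrk1 and Gzmb) and 5.2% of all. The NF-kB motif GGGNNTTCC, the CRE motif TGACGTCA and the TATA motif TATAAA were in 0 of the 7, and in 5.82%, 1.79% and 13.6% of all. The Prf1 window holds 4 separate ETS matches, which begin 197 and 109 bases before and 28 and 37 bases after the start. Both strands were searched, no motif contains another, and a match is a run of letters, not a bound site.

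Facts of the arrays that touch these genes come next. BIC, the precursor transcript of miR-155, read 7.51, 5.37, 5.28 and 5.46 on the knockout arrays Mim1-5, Mim1-6, Mim2-2 and Mim2-3 and 4.84 to 5.63 on the wild-type arrays, with random probes at 4.94 to 5.24, and where its probes lie relative to the deletion is not known, so it checks nothing. Sex-linked genes did not separate the labelled sexes: Y-linked Ddx3y averaged 7.82 on arrays labelled female and 7.76 on those labelled male, and X-linked Xist 10.13 and 9.95. Ddx3y did separate the genotypes, at 8.39 to 8.83 on the knockout arrays and 6.26 to 7.33 on the wild-type arrays (difference 1.75, limma adjusted p = 0.262), and Xist averaged 9.52 in knockout and 10.56 in wild-type spleens with overlap. Whether the animals' sex runs with genotype was not tested, and all values within labelled sexes rest on the labels. The 2 Mim2 arrays stood apart, correlating with the other 6 at r = 0.811 to 0.877 over all features, while those 6 correlated with each other at 0.911 to 0.943. The 2 Mim2 arrays correlated with each other at 0.874, inside the range of their correlations with the other 6. The values of the 10 genes and of the lists without the Mim2 arrays are given after the values on all arrays. Transcripts of spleen cells such as Cd3d and Marco were bright. Transcripts of mammary epithelium, which spleen does not make, were brighter in sum on wild-type arrays. There the linear intensities of 12 mammary markers summed to 106849 to 126305, beside 6395 to 9366 for 12 T cell markers.

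All 10 genes had higher means in knockout than in wild-type spleens, but no difference passed the test. The differences ran from 0.44 for Gzma to 1.55 for Xcl1 on the log2 scale, with a median of 0.73, beside a median of 0.06 over all 24203 genes, of which 53.9% were higher. In limma, adjusted over all features, 0 of the 10 passed at 0.05, as did 0% of all genes. At an unadjusted p under 0.05, 5 were higher (Cd8a, Nkg7, Ccl5, Il2rb and Xcl1) and 0 lower, where 7.70% of all genes were higher and 6.61% lower at that level. On 3 of the 10 (Cd8a, Gzmb and Xcl1) every knockout array lay above every wild-type array, as for 5.27% of all genes. Since the members were chosen with earlier results of these arrays known, these counts are a description. In whole spleen, more cells of a type and more RNA per cell cannot be told apart.

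**Figure D1:**
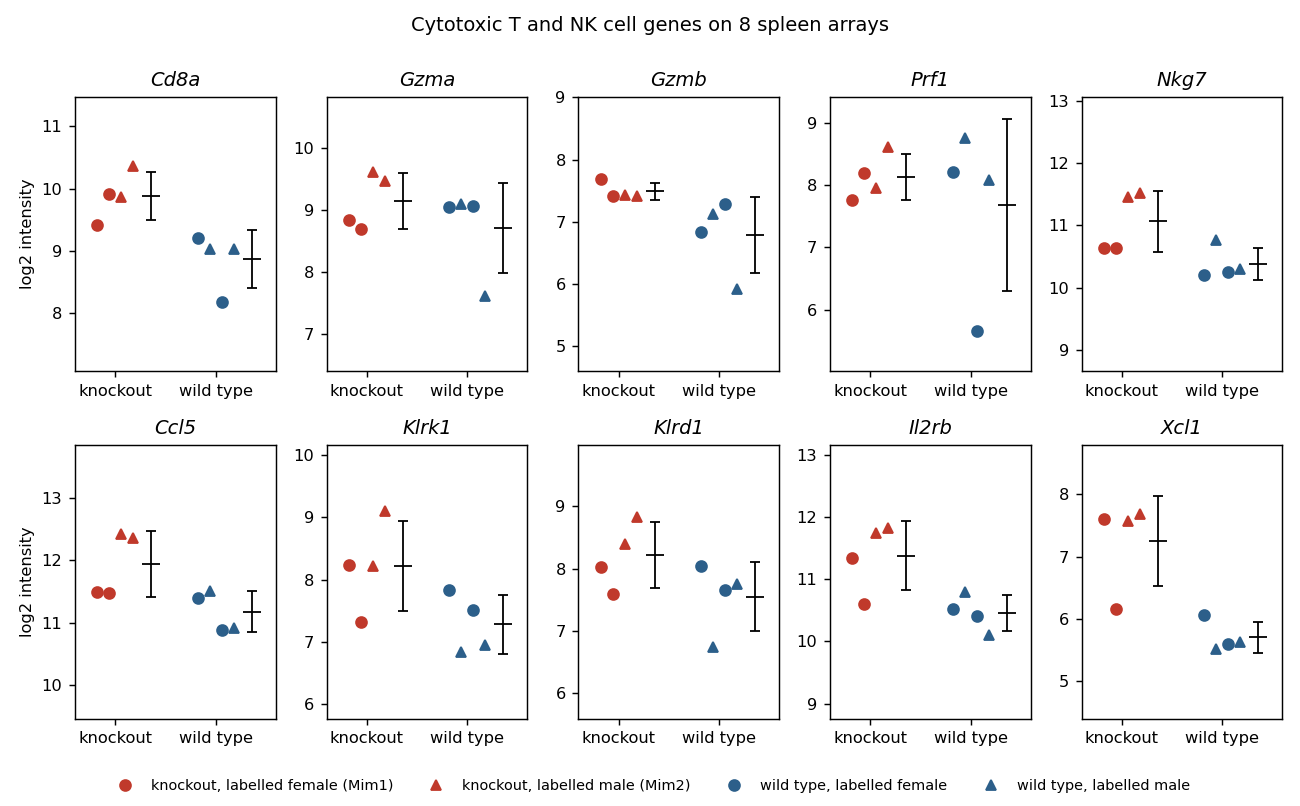
Log2 intensity of the 10 genes (y axis, 1 panel per gene, all panels spanning the same range) on the knockout arrays (red) and wild-type arrays (blue); circles are animals labelled female, triangles animals labelled male, and bars the mean ± SD of 4 arrays. The groups are apart for Cd8a, Gzmb and Xcl1 and overlap for the other 7 genes.

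Of the 10 genes, the granule genes Prf1, Gzma and Gzmb varied most among the wild-type spleens (SD 1.38, 0.724 and 0.612 over 4 arrays). Gzmb, granzyme B on chromosome 14 from 56877672 to 56881094 in build MM9, which the array tables use for all positions below, read 7.69, 7.42, 7.43 and 7.41 in Mim1-5, Mim1-6, Mim2-2 and Mim2-3. In WT-1 to WT-4 it read 6.84, 7.12, 7.28 and 5.91. The knockout arrays lay within 0.28 of each other and just above the wild type, where WT-4 was low. The difference was 0.70 ± 0.34 (SE) with an adjusted p of 0.391 in limma, and an exact two-sided permutation p of 0.0286, the smallest that 4 against 4 can give. Without WT-4 it was 0.42.

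Gzma, granzyme A on chromosome 13 from 113884034 to 113891189, read 8.84, 8.70, 9.60 and 9.47 on the knockout arrays in the same order and 9.05, 9.09, 9.07 and 7.62 on the wild-type arrays. The 2 Mim1 arrays lay below 3 of the 4 wild-type arrays, the 2 Mim2 arrays above all of them, and WT-4 again was lowest. The difference of 0.44 ± 0.43 did not exceed the spread between arrays (limma adjusted p = 0.663, exact permutation p = 0.343). It rested on WT-4, without which it was 0.0025, and without Mim2-2 it was 0.27. Both granzymes were thus lowest in the same wild-type spleen.

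Prf1, the gene of perforin on chromosome 10 from 60760583 to 60767011, read 7.76, 8.20, 7.96 and 8.61 in the knockout and 8.21, 8.76, 5.66 and 8.09 in wild type. One wild-type spleen, WT-3, was far below the other 7 arrays, which overlapped, and in it neither granzyme was low. The difference was 0.45 ± 0.55 (limma adjusted p = 0.743, exact permutation p = 0.83), and without WT-3 it was -0.18. Leaving out Mim1-6 gave 0.24, and leaving out Mim2-2, WT-1 or WT-2 gave 0.70, 0.84 and 0.70. The direction for Prf1 therefore rested on 1 library.

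Nkg7, which encodes a protein of the granule membrane, lies on chromosome 7 from 50692442 to 50693619. It read 10.64, 10.64, 11.46 and 11.52 in the knockout and 10.20, 10.77, 10.26 and 10.29 in wild type. The Mim2 arrays were above all others, and the Mim1 arrays were above 3 wild-type arrays but below WT-2. The difference was 0.68 ± 0.28 (limma adjusted p = 0.335, exact permutation p = 0.0857), and the other Nkg7 feature gave 0.65.

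The chemokine genes included the largest difference among the 10. Xcl1, the chemokine that draws the cross-presenting dendritic cells bearing Xcr1, lies on chromosome 1 from 166861774 to 166865641. It read 7.60, 6.16, 7.57 and 7.68 in Mim1-5, Mim1-6, Mim2-2 and Mim2-3, and 6.07, 5.52, 5.60 and 5.63 in WT-1 to WT-4. The wild-type values were close together and little above the random probes, 3 knockout arrays were well above them, and Mim1-6 was just above WT-1. The difference was 1.55 ± 0.39, 2.92-fold (limma adjusted p = 0.262, exact permutation p = 0.0286).

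Ccl5, a chemokine that memory CD8 T cells and NK cells make in quantity, lies on chromosome 11 from 83339280 to 83344003. It read 11.49, 11.48, 12.43 and 12.36 in the knockout and 11.40, 11.52, 10.89 and 10.91 in wild type. The 2 Mim2 arrays stood above the rest, and the Mim1 arrays lay level with WT-1 and WT-2. The difference was 0.76 ± 0.31 (limma adjusted p = 0.341, exact permutation p = 0.0857).

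Among the receptors, Cd8a separated the genotypes on its bright feature. It encodes the alpha chain of the CD8 coreceptor of cytotoxic T cells, also carried by a subset of mouse dendritic cells, and lies on chromosome 6 from 71323556 to 71327603. It read 9.42, 9.91, 9.86 and 10.36 in the knockout and 9.21, 9.04, 8.18 and 9.03 in wild type. All knockout arrays were above all wild-type arrays, and WT-3 was lowest. The difference was 1.03 ± 0.32, 2.04-fold (limma adjusted p = 0.287, exact permutation p = 0.0286). The other Cd8a feature was dim, above the random probes on 3 of 4 arrays in each genotype, and differed by 0.67 with overlap.

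Il2rb encodes the receptor chain that interleukins 2 and 15 share, on chromosome 15 from 78310978 to 78325469. It read 11.35, 10.60, 11.75 and 11.83 in the knockout and 10.52, 10.80, 10.42 and 10.10 in wild type. Only Mim1-6 fell inside the wild-type range. The difference was 0.92 ± 0.33 (limma adjusted p = 0.307, exact permutation p = 0.0571). A dim second feature, with 3 arrays above the random probes in each genotype, gave -0.13.

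Klrk1 encodes NKG2D, the activating receptor for stress ligands, and its 3 features disagreed. The brightest one read 8.24, 7.32, 8.23 and 9.10 in the knockout and 7.84, 6.83, 7.52 and 6.95 in wild type. Mim1-6 lay among the wild-type values and the other 3 knockout arrays above them, with a difference of 0.94 ± 0.43 (limma adjusted p = 0.373, exact permutation p = 0.0857). Without Mim2-3 it was 0.60. This feature's transcript is placed on chromosome 6 from 129382356 to 129572652, a span that also contains Klrd1 and 4 other named genes, among them Clec7a and Olr1. The 2 features placed on Klrk1 alone, from 129561589 and 129560338 to 129573859, had group means between 5.53 and 6.11 and differed by 0.18 and -0.02. A higher Klrk1 in the knockout thus rested on 1 of 3 features.

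Klrd1 encodes CD94, the partner of the NKG2 chains in receptors for the class I molecule Qa-1, and lies beside Klrk1 from 129541824 to 129548670. Its brightest feature read 8.03, 7.60, 8.40 and 8.83 in the knockout and 8.04, 6.75, 7.66 and 7.74 in wild type, so the Mim1 arrays lay inside the wild-type range and the Mim2 arrays above it. The difference was 0.67 ± 0.40 (limma adjusted p = 0.478, exact permutation p = 0.2). Without WT-2 it was 0.32, and without Mim2-3 it was 0.44. The other 2 features gave 0.89 ± 0.32 (limma adjusted p = 0.307, exact permutation p = 0.114) and 1.16 ± 0.37 (limma adjusted p = 0.288, exact permutation p = 0.0286). On the last, the knockout read 7.69, 7.08, 7.74 and 7.83 and the wild type 6.94, 6.96, 5.70 and 6.11, with no overlap.

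Within the labelled sexes, taken from the interaction fit, the differences were larger between males, which are the Mim2 arrays against WT-2 and WT-4, than between females for 9 of the 10 genes. The median was 0.45 between females and 1.18 between males, against 0.03 and 0.15 over all genes. Between males 8 genes were higher at an unadjusted p under 0.05, where 12.3% of all genes were, and between females 0, where 2.30% were. After adjustment 0 of the 10 passed in either sex, while 4.26% of all genes passed between males and 0% between females. The lowest adjusted p between males were 0.0649 for Xcl1, with a difference of 2.05, and 0.0754 for Klrk1, with 1.77 (limma, both knockout males above both wild-type males in each). In a fit of the 4 arrays labelled male alone, 6 of the 10 were higher at an unadjusted p under 0.05. The share of all genes at that level was not counted in that fit.

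The exception was Prf1, with 1.04 between females and -0.14 between males, and the value in females contains the low WT-3. Gzma and Klrd1 had differences of -0.29 and -0.04 between females and 1.18 and 1.37 between males. Cd8a was nearly the same in both, 0.97 and 1.08. The difference between the sexes was itself tested as an interaction, where 0 of the 10 and 0% of all genes passed in limma. At an unadjusted p under 0.05 only Klrk1 did, with 1.67 (limma adjusted p = 0.340), where 13.6% of all genes did. The additive male minus female term called 0 of the 10 and 0% of all genes.

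**Figure D2:**
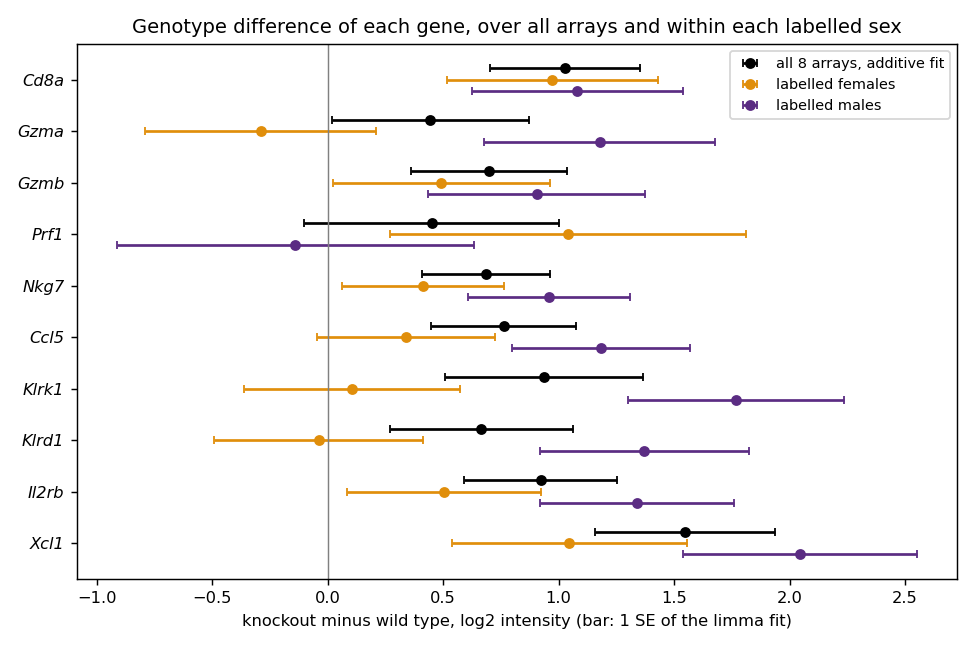
Knockout minus wild type difference in log2 intensity (x axis) for each of the 10 genes (y axis), from the additive fit of all 8 arrays (black) and within labelled females (orange) and males (purple); bars are 1 SE. The purple points lie right of the orange ones for all genes but Prf1, and Cd8a shows the nearest agreement of both.

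The Mim2 arrays weighed heavily in these differences. On 5 of the 10 genes (Gzma, Nkg7, Ccl5, Klrd1 and Il2rb) both Mim2 arrays lay above the other 6, as for 16.3% of all genes. The Mim2 arrays were then left out, and the 2 knockout animals labelled female set against all 4 wild-type animals without the sex term. The median was 0.40, and Xcl1 alone was higher at an unadjusted p under 0.05, by 1.17 (limma adjusted p = 0.833). The share of all genes at that level was not counted there. In that comparison Cd8a differed by 0.80, Gzmb by 0.76 and Il2rb by 0.52, while Nkg7, Ccl5, Klrd1 and Gzma differed by 0.26, 0.31, 0.26 and 0.06, and Klrk1 and Prf1 by 0.50 and 0.30. With the sex term kept, the values without the Mim2 arrays are those between females, and Klrk1 differed by 0.11.

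Markers of other cell types moved on the same arrays. Of 12 T cell markers 12 were higher in the knockout, with a median of 0.58 and 5 at an unadjusted p under 0.05. Over all genes 53.9% were higher, and 7.70% at that level. The T cell list means were 8.91, 8.80, 9.57 and 9.37 on the knockout arrays against 8.05 to 8.64 in wild type. Of 12 B cell markers 11 were higher, with a median of 1.25 and 10 at that level. Their summed linear intensity was 15428 to 27459 on knockout and 6031 to 9171 on wild-type arrays. The median of the 10 cytotoxic genes lay between these values. The pan-T gene Cd3d read 11.34, 10.91, 12.14 and 11.92 in the knockout and 10.68 to 11.37 in wild type, and Cd4 of helper T cells 8.08 to 9.20 and 7.15 to 9.14, so the groups overlapped for both. For 5 of the 12 T cell markers (Cd3g, Lck, Zap70, Cd2 and Trat1) and 6 of the 12 B cell markers every knockout array lay above every wild-type array, against 5.27% of all genes.

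Beside 11149 of all 24203 genes, 11 of 12 mammary epithelium markers were lower in the knockout, with a median of -1.83. Their summed linear intensity was 7034 to 86039 on knockout and 106849 to 126305 on wild-type arrays, and their list means were 10.93 and 10.77 on the Mim1 arrays, 7.96 and 9.48 on the Mim2 arrays and 11.40 to 11.69 in wild type. Beside 53.9% of all genes, 10 of 11 pancreas markers were higher, with a median of 1.43. Their summed intensities were 2973 to 5859 on knockout and 748.2 to 896.8 on wild-type arrays. The Mim2 arrays, highest in cytotoxic genes, were also highest in T and B cell markers and lowest in mammary ones. Each marker of these 4 lists was brighter than the random probes on at least 1 array. On all 8 arrays this held for 12 of 12 T cell, 12 of 12 B cell, 9 of 12 mammary and 5 of 11 pancreas markers. Part of the pancreas values thus lay at background, and Cpa1 and Prss2 each exceeded the random probes on 1 wild-type array. Median differences were 0.23 for 6 dendritic cell markers, 0.06 for 11 macrophage and neutrophil markers and -0.51 for 9 erythroid markers. Without the Mim2 arrays, with the sex term kept, the medians were 0.25 for T cell, 0.71 for B cell, -0.16 for mammary and 1.31 for pancreas markers, and 0.05, -0.39 and -1.09 for the last 3 lists. In that fit Csn1s1, Csn2, Wap and Lalba differed by -3.08, -2.47, -2.10 and -1.08. The other mammary markers ran from -0.28 for Epcam to 0.98 for Krt19. Between males the mammary median was -3.59. The part of these lists in the differences of the cytotoxic genes was not tested.

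**Figure D3:**
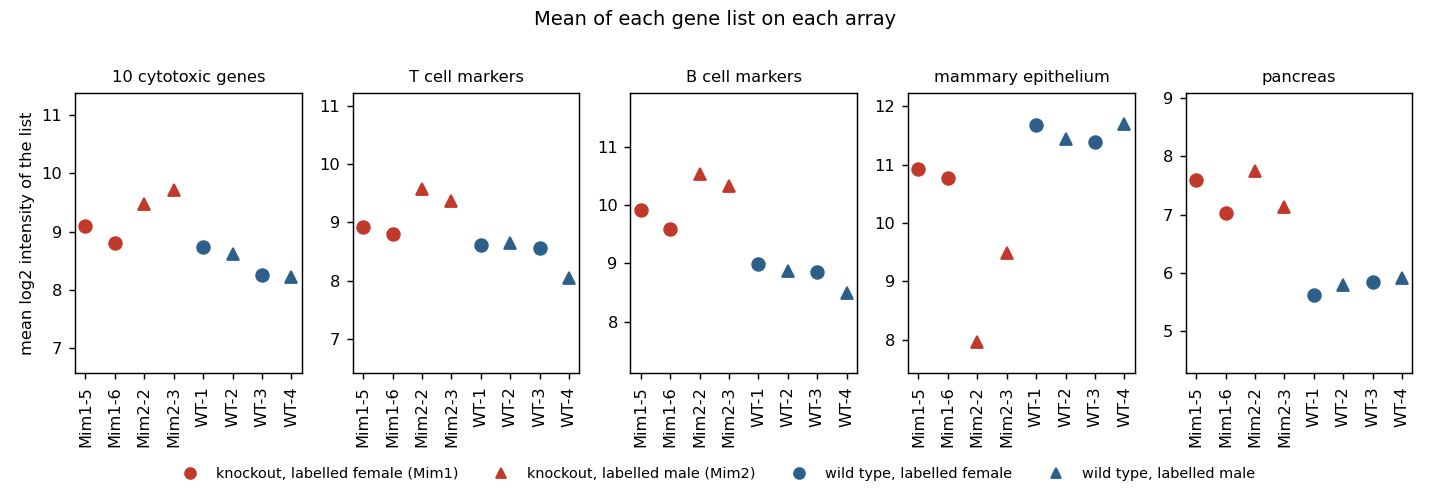
Mean log2 intensity (y axis, same span in each panel) of the 10 cytotoxic genes and of T cell, B cell, mammary epithelium and pancreas markers on each array (x axis), coloured by genotype and shaped by labelled sex. The cytotoxic, T and B cell means are highest on Mim2-2 and Mim2-3, where the mammary mean is lowest, and the pancreas mean is higher on all 4 knockout arrays.

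Other genes of the cytotoxic programme, grouped by role, differed less evenly. Of 59 measured genes in 6 lists, 36 were higher and 23 lower in the knockout, with a median of 0.10, and 0 passed adjusted over all features in limma. At an unadjusted p under 0.05, 10 were higher and 1 lower, where 7.70% and 6.61% of all genes were. The list medians without the Mim2 arrays, with the sex term kept, are those between females. They were -0.15 for granule, 0.37 for receptor, 0.14 for adaptor and ligand, 0.43 for cytokine, -0.84 for chemokine and 0.21 for transcription factor genes, and 0.04 over all 59. Every knockout array lay above every wild-type array for 4 of them, against 5.27% of all genes, and below for 1, against 2.55%. The genes named below are the 4 with the smallest p of each list and the known partners of the 10, of which Xcr1 and Cd8b1 were not analysed here.

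Among granule and killing genes 10 of 16 were higher and 6 lower, with a median of 0.12. Srgn, the proteoglycan that packs granzymes and that myeloid cells also make, read 11.40, 11.17, 11.90 and 11.94 in the knockout and 10.65, 10.35, 11.08 and 9.43 in wild type. The groups did not overlap, and the difference was 1.23 ± 0.40 (limma adjusted p = 0.292). Unc13d, which readies granules for release, differed by 0.84 ± 0.37, but by -0.10 when its features were averaged. Ctsw, a cathepsin of cytotoxic cells, differed by 0.56 ± 0.29, with overlap. Stxbp2, which also serves granule release, differed by -0.58 ± 0.34 and read lowest on the Mim2 arrays (9.13 and 8.55), and between females it differed by 0.01.

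NK and CD8 receptor genes were higher for 9 of 12, with a median of 0.62 and 3 at an unadjusted p under 0.05. Klrb1c, the NK1.1 receptor, read 6.71, 8.66, 6.52 and 7.02 in the knockout and 6.79, 6.30, 5.39 and 5.57 in wild type. Here Mim1-6, low for most of the 10 genes among the knockout arrays, was the highest (difference 1.22 ± 0.51, limma adjusted p = 0.344). Cd226, an activating receptor, differed by 1.05 ± 0.39 and exceeded the random probes in only 2 wild-type spleens, so that value is not exact. Ly6c2, carried by memory CD8 T cells and monocytes, differed by 0.87 ± 0.36. Cd160, a receptor of NK and CD8 T cells, differed by 0.78 ± 0.38 and was high on the Mim2 arrays (8.22 and 7.52 against 6.23 to 6.59 on the other 6). Klrc1, the NKG2A partner of Klrd1, averaged 6.92 ± 0.58 (SD, n = 4) on knockout arrays against 6.96 ± 0.98 in wild type.

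Of 6 adaptor and ligand genes 3 were higher. Cd247, the CD3 zeta chain of the T cell receptor that NK receptors also use, read 7.67, 7.18, 8.66 and 8.43 in the knockout and 6.82 to 7.32 in wild type. The Mim2 arrays were again the highest (0.99 ± 0.32, limma adjusted p = 0.289). Hcst, the DAP10 adaptor of NKG2D, differed by 0.50 ± 0.28, and Tyrobp, the DAP12 adaptor that myeloid cells also carry, had means of 12.23 ± 0.80 and 11.75 ± 0.33 (SD, n = 4). The NKG2D ligand gene Ulbp1 was above the random probes on 1 knockout and 3 wild-type arrays. H2-T23, which encodes Qa-1, the ligand of CD94 receptors, had means of 12.07 ± 0.73 in the knockout and 12.49 ± 0.26 in wild type.

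In the cytokine list 5 of 12 genes were higher and 7 lower. Il2rg, the common gamma chain that pairs with Il2rb and is carried by most lymphocytes, read 12.22, 11.78, 12.78 and 12.51 in the knockout and 11.10, 11.45, 10.47 and 10.62 in wild type, a difference of 1.41 ± 0.32 with no overlap (limma adjusted p = 0.262, exact permutation p = 0.0286). Il2ra, the chain that completes the high-affinity interleukin 2 receptor, read 6.44, 6.22, 7.47 and 7.05 against 5.49, 5.61, 5.65 and 5.29, a difference of 1.28 ± 0.32 (limma adjusted p = 0.262, exact permutation p = 0.0286). All knockout arrays were above all wild-type arrays in both, so all 3 chains of the interleukin 2 receptor had higher means. The wild-type values of Il2ra were little above the random probes. Il15, the ligand, had means of 6.88 ± 1.33 and 6.93 ± 0.83 (SD, n = 4), and Il15ra, which presents it, 9.88 ± 0.86 and 9.89 ± 0.71. The interleukin 12 receptor gene Il12rb1 was above the random probes on 0 of 4 knockout and 3 of 4 wild-type arrays, where WT-2 read 8.45. Stat5a, which carries the signal of these receptors and also acts in mammary epithelium, differed by -0.72 ± 0.35, with overlap. The list's median was -0.01 over 12 genes.

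Among 5 chemokine axis genes 2 were higher and 3 lower. Ccl4 differed by 0.81 ± 0.42 and Ccl3 by -0.65 ± 0.48, both chemokines of activated NK and CD8 T cells, with overlap in both. The Ccl5 receptor genes Ccr1 and Ccr3 were each under the random probes in at least 1 spleen. Their means in knockout and wild type were 5.38 and 6.30 for Ccr1 and 5.72 and 5.72 for Ccr3. Ccr1 read 4.68 to 5.81 in the knockout and 7.06, 4.37, 6.42 and 7.36 in WT-1 to WT-4. It differed by -0.92 ± 0.58, with overlap (limma adjusted p = 0.500).

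Of 8 transcription factor genes 7 were higher, with a median of 0.55. Zeb2, which acts in the terminal steps of NK and CD8 T cells and in myeloid cells, read 8.63, 8.05, 8.83 and 8.98 in the knockout and 7.48, 7.42, 7.10 and 6.84 in wild type, with no overlap and the largest difference of this list (1.41 ± 0.32, limma adjusted p = 0.262, exact permutation p = 0.0286). Prdm1, which encodes Blimp-1 of effector T cells and plasma cells, differed by 0.97 ± 0.35. Ets1, a factor of lymphocytes, differed by 0.71 ± 0.38, and by -0.04 between females. Id2, an inhibitor of E proteins that NK cells need and epithelia also make, was the one lower, reading 12.56, 12.31, 11.32 and 11.25 against 12.64 to 12.95. Its groups did not overlap, and it was lowest on the Mim2 arrays (-0.91 ± 0.33, limma adjusted p = 0.309). Between males in the interaction fit Srgn, Il2ra and Id2 passed in limma, with differences of 2.03, 1.81 and -1.56 (adjusted p = 0.0428, 0.0387 and 0.0486). These are 3 of 59 related genes, a share near the 4.26% of all genes that passed there.

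**Figure D4:**
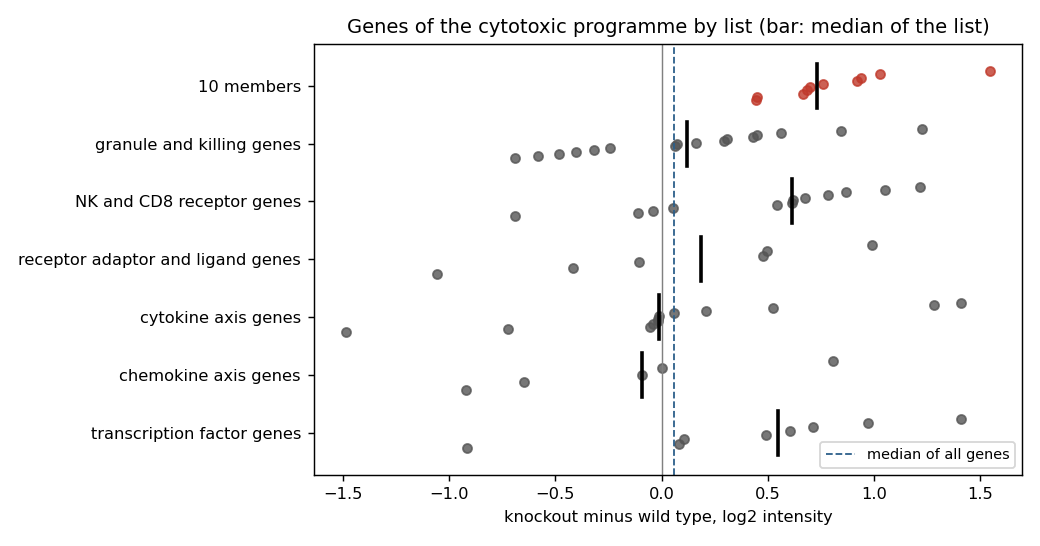
Knockout minus wild type difference in log2 intensity (x axis) of the 10 cytotoxic genes (red) and of the genes of 6 related lists (grey); each point is a gene, black bars are list medians and the dashed line is the median of all genes. All 10 red points lie right of 0, while the granule, adaptor, cytokine and chemokine lists spread to both sides.

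The genes whose pattern over the 8 arrays was most like the mean standardised profile of the 10 were ranked among 15822 other genes above the random probes on every array. Of these, 660 (4.17%) had a Pearson r over 0.9 with the profile. First came Lmo2, a transcription cofactor of blood cells, with Pearson r = 0.993 and Spearman rho = 0.976, followed by Bend5 (r = 0.990), Fam105b, now Otulin, a deubiquitinase (0.990), and A430107D22Rik, now Rasal3 (0.989). The next 6 were Gm13342, Cd300c, Klk1, Gm3705, Gm2525 and Gm3153, with r from 0.985 to 0.989. Without Mim2-2 and Mim2-3, the 2 arrays farthest from the median of the profile, r over the other 6 was 0.961 to 0.997 for these 10 genes. The profile itself stood at 1.25 in Mim2-3, 0.92 in Mim2-2, 0.32 in Mim1-5 and -0.09 in Mim1-6, and at -0.22, -0.36, -0.81 and -1.01 in WT-1 to WT-4. These points share arrays and normalization, and the genes were picked for their r.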

How the data were processed

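Cy3-labelled RNA of 8 spleens went onto 1-colour NimbleGen arrays, per the labels. Each array's deposited table holds 1 linear intensity per feature, made by the authors with RMA (no version stated) per the submitters' processing notes, with positions in MM9 per the file headers. A standard error score per feature, also deposited by the authors, was not used. The number of arrays limits the precision.

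Intensities of 44170 features were transformed to log2. Differences were fitted with limma 3.58.1 (R 4.3.3), lmFit and eBayes, two-sided, with labelled sex as an additive term and Benjamini-Hochberg adjustment over all features at 0.05, and with a genotype by sex interaction. Exact permutation tests used the 70 arrangements of 8 arrays. The fit was run on simulated data with independent noise per feature. Those data hold no shift shared by the genes of an array, so they do not test the effect of the Mim2 arrays. A gene counts by its brightest feature. Random probes, 5000 summarised in 1 entry, gave the background. Lists matched by file name or current symbol (RefSeq, GRCm38.p6). Genes without a feature were not analysed here. Named related genes are up to 4 of smallest p per list and partners of the members, of which 1 gene is not reported here. The 10 genes most like the members' mean profile are named too. Alternatives were other scalings, filters, variance models, sex terms, features and subsets of arrays. Members, lists and motifs were chosen with earlier results of these data known, and 2 longer NF-kB spellings that matched no member window are not shown.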

Additional observations from a re-analysis of the deposited data

Results flagged for a closer look

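A sample far from the others of its group was looked for in 20 groups of 4 arrays, where chance gives about 1 such group in 20. Gzma read 7.62 in WT-4, 1.43 below the next wild-type array. Xcl1 read 6.16 in Mim1-6, 1.41 below the next knockout array. Gzmb read 7.69 in Mim1-5, 0.26 above the next knockout array, in a group whose whole range was 0.28. Nkg7 read 10.77 in WT-2, 0.48 above the next wild-type array.

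For Gzma the labelled sexes went opposite ways on every array. Both Mim1 arrays lay below both wild-type arrays labelled female, and both Mim2 arrays above both wild-type arrays labelled male. The genotype difference was larger in labelled males by 1.47, which did not pass when tested as an interaction (limma adjusted p = 0.424, unadjusted p = 0.0731). The low value of WT-4 is part of that difference.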

How the results depend on the processing

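Of 236 values of the 10 genes under an alternative, 225 kept their direction and 0 passed the threshold, the lowest adjusted p being 0.0649. The 11 that turned were Gzma (-0.29) and Klrd1 (-0.040) between females, which is also the fit without both Mim2 arrays, Prf1 without WT-3 (-0.18, and up to 0.84 with another array left out) and between males (-0.14), and the dim features of Klrk1 (-0.016) and Il2rb (-0.13). Of 633 values of the named related genes, 52 turned, most of them of Klrc1, Il15, Il15ra and Ccr3, whose differences on all arrays were within 0.1 of 0. The values that turned were, between females and without both Mim2 arrays, Stxbp2 0.013, Klrc1 0.94, Tyrobp -0.078, H2-T23 0.10, Il15ra 1.13, Ccr3 -0.84, Ets1 -0.044; between males, Il15 1.09; without both Mim2 arrays and the sex term, Stxbp2 0.24, Klrc1 0.35, Tyrobp -0.19, H2-T23 0.18, Il15ra 0.68, Ccr3 -0.72. They were, under quantile normalization, Il15 0.0063, Il15ra 0.077, Ccr3 -0.049; under median centring, Ccr3 -0.022; with array weights, Klrc1 0.082, Il15ra 0.22, Ccr3 -0.23; with features averaged, Unc13d -0.10, H2-T23 0.080. With 1 array left out the ranges that cross 0 were Klrc1 -0.45 to 0.43, Il15 -0.45 to 0.53, Il15ra -0.46 to 0.32, Ccr3 -0.20 to 0.44. The number of the 10 higher at an unadjusted p under 0.05, 5 on all arrays, was 0 between females in each such fit and without both Mim2 arrays, 1 without them and without the sex term (chosen after seeing the data), 8 between males in the interaction fit, and 2 to 6 when 1 array was left out: 3 without Mim1-5, and 2 without Mim2-2, Mim2-3 or WT-4. Their median was 1.18 between males in both fits and 0.63 to 0.92 with 1 array left out. Shares of all genes at that p were counted only for the additive fit of all arrays and for the interaction fit. Over all features, 16 were called with trend and robust variances and 1875 between males in the interaction fit, and 0 in the other settings, including each with 1 array left out. The intensities of the authors' series table, quantile normalization, median centring, the filter on dim features, array weights, the floor and dropping the sex term gave 4 or 5 genes at that p and medians of 0.64 to 0.78, though not always the same genes: the authors' series table, which was read for 9 of the 10 (Xcl1 was not analysed there), and the fit without the sex term each brought in Klrk1, and the latter lost Nkg7 and Ccl5. Medians of the related lists and of the T cell, B cell and mammary lists changed sign in 21 of 198 values. Of these, 12 were in the cytokine, 5 in the chemokine, 3 in the granule and 1 in the adaptor list. The dendritic cell, macrophage and neutrophil, erythroid and pancreas lists are not in this count. The macrophage and neutrophil median was 0.06 on all arrays and -0.39 between females. No paired analysis was possible because the knockout animals carry names of their own and no label ties them to wild-type animals. Signal over background limits Xcl1, Il2ra, Cd226, some pancreas and mammary markers and the dim features.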
